A study of Mus musculus with 5 samples.

Results

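miR-26a, miR-26b and miR-101a are 3 of the 217 miRNAs assayed in mouse tibialis anterior, a muscle of the lower leg, during its repair after cardiotoxin. They were chosen by assay name as miRNAs known to repress Ezh2, and all 3 assays were found, each under Ct 35 in all 24 of its wells. The mice were C57BL/6J males of 4 to 6 months. Cardiotoxin, a venom peptide that destroys myofibres, was injected at 2.5 µM (100 µl) into both hind limbs, and muscles were taken on days 1, 3, 4, 7 and 21. Baseline muscles received no injection, so an effect of the needle and one of the toxin cannot be told apart. The labels give 4 mice per time point, and each arm held 4 values per assay, taken here as the 4 mice. Where they are repeats of fewer mice, the p-values measure only technical spread.

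Ezh2 is the histone methyltransferase subunit of the Polycomb repressive complex, which keeps muscle genes silent in proliferating myoblasts and is lost as they differentiate. A miRNA binds messages mainly through its seed, bases 2 to 8, and lowers their stability and translation. miR-26a has been reported to act on Ezh2 in mouse myoblasts and to promote their differentiation, and miR-101 was described as a repressor of EZH2 in human cancer cells. miR-26b carries the same seed as miR-26a. Ezh2 itself was not analysed here.

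The mature sequences show how the members are related. The seed is in capitals, the sequences are those of RefSeq (GRCm38.p6), and all 3 members were matched.
miR-26a: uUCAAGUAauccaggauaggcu
miR-26b: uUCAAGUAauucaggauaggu
miR-101a: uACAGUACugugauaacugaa
Of 1679 mature miRNA names in the RefSeq table, 2 carry the seed UCAAGUA, miR-26a and miR-26b. The seed ACAGUAC belonged to 1 name, miR-101a. Counted from the 5′ end, miR-26b differs from miR-26a by C11U and C21U and is 21 rather than 22 bases long, so the pair differs only outside the seed. How far each assay also reads its near-identical relative is not given in the sources used here.

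miR-26a is made from a pair of loci with the same mature sequence, so its assay cannot tell them apart. The hairpins are printed with the mature miRNA in capitals, because the arms around it are where the loci differ.
Mir26a-1: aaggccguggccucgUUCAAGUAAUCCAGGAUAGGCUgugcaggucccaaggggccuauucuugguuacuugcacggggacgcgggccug
Mir26a-2: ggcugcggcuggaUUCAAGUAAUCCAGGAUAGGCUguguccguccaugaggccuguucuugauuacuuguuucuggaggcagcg
Mir26b: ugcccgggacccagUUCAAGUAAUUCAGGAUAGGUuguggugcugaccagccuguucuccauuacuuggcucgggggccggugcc
Mir101a: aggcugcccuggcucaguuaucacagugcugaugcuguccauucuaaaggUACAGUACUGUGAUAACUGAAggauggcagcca
In GRCm38.p6, Mir26a-1 lies at chr9:119031796-119031885 (plus strand) within the span of Ctdspl, Mir26a-2 at chr10:126995530-126995613 (plus strand) within Ctdsp2, and Mir26b at chr1:74394310-74394394 (plus strand) within Ctdsp1. These host genes encode related small phosphatases that act on RNA polymerase II. Mir101a lies at chr4:101346945-101347027 (minus strand) within the span of the long non-coding RNA E130102H24Rik. Whether a hairpin is exonic or intronic was not analysed here.

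Each assay gave a threshold cycle (Ct), the point in the PCR at which product becomes visible, so higher values mean less RNA. miR-26a had Ct 15.66, 15.39, 15.06 and 15.04 at baseline. On day 1 it had 16.44, 16.92, 16.64 and 16.70, and on day 3 it had 17.35, 17.26, 17.22 and 17.61. Day 4 gave 16.85, 16.96, 17.50 and 17.27, day 7 gave 16.48, 16.27, 16.14 and 16.66, and day 21 gave 15.93, 16.10, 15.96 and 16.11. All 20 values after injury lay above the 4 baseline values, highest on days 3 and 4, and day 21 lay closest to baseline without overlapping it.

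miR-26b had Ct 17.92, 17.57, 17.16 and 17.12 at baseline and 17.45, 17.74, 17.99 and 18.13 on day 1, which overlap. Day 3 gave 18.53, 18.76, 18.40 and 18.87, and day 4 gave 18.66, 18.92, 18.90 and 18.95. Day 7 gave 18.55, 18.34, 18.37 and 18.96, and day 21 gave 17.99, 18.14, 18.50 and 18.30. From day 3 on, no value overlapped baseline, but on day 21 the lowest Ct, 17.99, came close to the highest baseline Ct, 17.92.

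miR-101a had Ct 19.35, 19.17, 18.89 and 18.76 at baseline and 20.77, 20.92, 20.11 and 20.44 on day 1. Day 3 gave 21.28, 20.87, 20.78 and 21.07, day 4 gave 21.30, 20.80, 21.75 and 21.06, and day 7 gave 20.97, 21.26, 21.12 and 21.23. On day 21 it had 20.69, 20.75, 20.30 and 20.52. No value after injury overlapped baseline, and the day 21 values lay within the range of day 1.

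**Figure D1:**
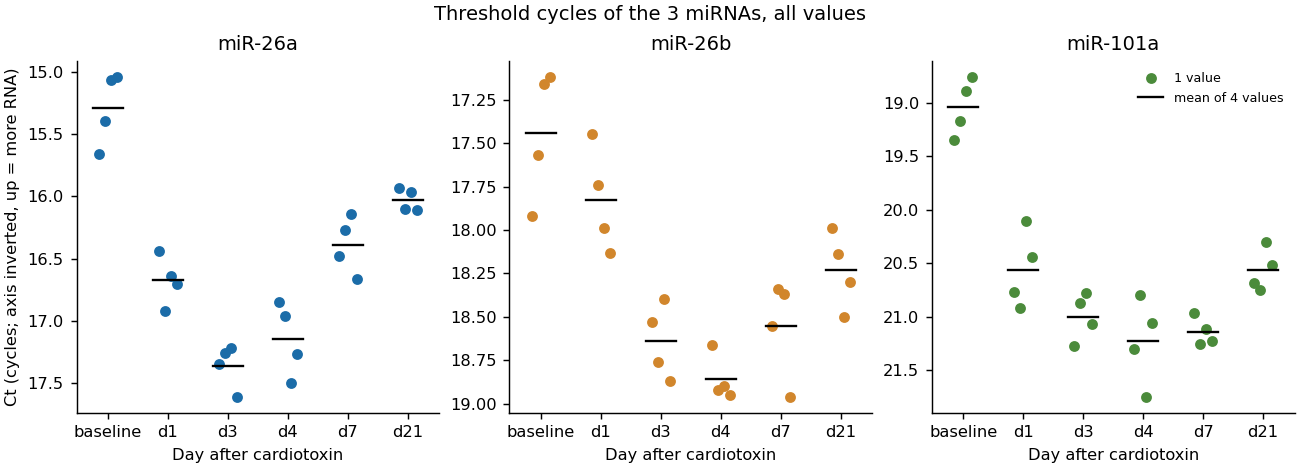
Ct of miR-26a, miR-26b and miR-101a (cycles, axis inverted so that more RNA is up) at baseline and on days 1, 3, 4, 7 and 21 (d1 to d21). Points are single values and bars are means of 4 values. miR-26a and miR-101a were clear of baseline in every arm, and miR-26b overlapped it on day 1 (17.45 to 18.13 on day 1, against 17.12 to 17.92 at baseline).

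Turning Ct into change needs a scale, and the control RNAs moved apart. The nuclear RNA U6, the files' endogenous control, averaged Ct 12.5 on day 1, against 14.8 at baseline, while Y1, a small cytoplasmic RNA, had 22.7 on day 1, against 20.3 at baseline. The main scale is therefore the median change of the 205 miRNAs under Ct 35 in every well, with U6 beside it, and "fell" or "rose" is written only where limma's test passed (adjusted p under 0.05 over all miRNAs tested) on both. Log2 changes relative to U6 were lower than those relative to the median miRNA by 1.91, 1.12, 0.67, 0.09 and 0.12 on days 1, 3, 4, 7 and 21. The median residual SD was 0.268 (log2) on the main scale and 0.644 on the U6 scale. All 5 measured myofibre miRNAs were detected at baseline. So were 213 of all 217 miRNAs, and this detection therefore cannot identify the tissue.

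All 3 members fell on days 1, 3, 4 and 7, although relative to Y1 they stood above baseline on day 1 (log2 0.96, 1.97 and 0.83 for miR-26a, miR-26b and miR-101a). Only miR-101a still passed on both scales on day 21. That made 13 of 15 changes lower and 0 higher. Falls were common in this series: 38.9% of the 211 miRNAs tested were lower on both scales on day 1, 41% of 212 on day 3, 41.3% of 213 on day 4, 35.7% on day 7 and 19.2% on day 21. The shares higher on both scales were 9%, 19.3%, 25.4%, 31.5% and 22.1% on those days. In bulk tissue, fewer cells that hold a miRNA and less of it per cell cannot be told apart.

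miR-26a, the best studied of the 3 in muscle, was 3.42-fold lower on day 1 than at baseline (log2 -1.77 ± 0.16, SE, 4 values per arm) and 12.8-fold lower relative to U6 (-3.68 ± 0.49). It reached -2.78 ± 0.16 on day 3 and -2.80 ± 0.16 on day 4, 6.87-fold and 6.97-fold lower than baseline. Relative to U6 these were -3.90 and -3.48. By day 7 it stood at -2.29 ± 0.16, and relative to U6 at -2.39 ± 0.49. That size depended on the scaling, with -1.10 in raw Ct and -0.73 with quantile scaling, both past the threshold (adjusted p = 3.66e-06 and 0.000537).

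miR-26b, its seed partner, was less far down at first. Its day 1 change was -0.77 ± 0.18, 1.70-fold lower than baseline, with adjusted p = 0.000697 (-2.68 ± 0.53 relative to U6, adjusted p = 3.53e-05). With raw Ct, the change of -0.39 did not pass (adjusted p = 0.0759). It then stood at -1.91 on day 3, -2.36 on day 4 and -2.31 on day 7, each ± 0.18. Relative to U6 these 3 arms stood at -3.03, -3.03 and -2.40. Relative to Y1 the day 3 change was -0.59 and did not pass (adjusted p = 0.107).

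miR-101a, whose seed is unrelated to that of miR-26, had its lowest mean on day 7 on the main scale. It was 3.74-fold lower on day 1 (-1.90 ± 0.16), 6.34-fold on day 3 (-2.67), 8.75-fold on day 4 (-3.13) and 9.82-fold on day 7 (-3.30 ± 0.16). Relative to U6 the first 3 arms were level, at -3.81, -3.79 and -3.80, and day 7 stood at -3.39, so the day of its lowest level depends on the scale.

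Day 21 separated the members by call. miR-101a remained 3.18-fold lower than baseline (-1.67 ± 0.16, adjusted p = 9.63e-09; -1.79 ± 0.40 relative to U6, adjusted p = 0.000609). miR-26a stood at -0.89 ± 0.16 (adjusted p = 5.72e-05), but relative to U6 its -1.01 ± 0.49 did not pass (adjusted p = 0.101), and its sign turned relative to Y1 (0.19) and with quantile scaling (0.05). miR-26b stood at -0.94 ± 0.18 (adjusted p = 0.000123), with -1.06 ± 0.53 relative to U6 (adjusted p = 0.107) and 0.13 relative to Y1. These misses do not show a return to baseline.

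**Figure D2:**
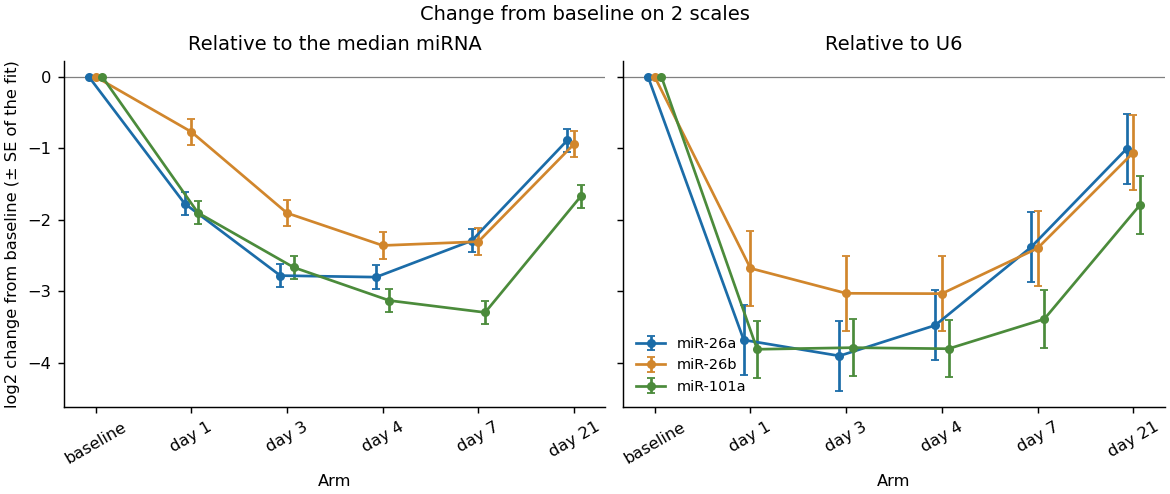
Log2 change from baseline of the 3 miRNAs by arm, relative to the median miRNA (left) and to U6 (right). Points are means of 4 values and bars are standard errors of the limma fit. On both scales all 3 lie below 0 in every arm, and on day 21 miR-101a is the lowest, at -1.67 and -1.79.

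Among all miRNAs tested, miR-101a ranked nearest the bottom on day 7. Counted from the largest decrease, it was number 25 of 211 on day 1, 18 of 212 on day 3, 14 of 213 on day 4, 4 of 213 on day 7 and 12 of 213 on day 21. miR-26a ranked 27, 17, 18, 24 and 44 on the same days, and miR-26b 68, 41, 28, 23 and 41. On days 1, 3, 4 and 7 miR-26a thus sat among the larger decreases without being the most extreme, and miR-26b did so on days 4 and 7. On day 1, when 82 miRNAs were called lower on the main scale, miR-26b was among the smaller decreases.

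**Figure D3:**
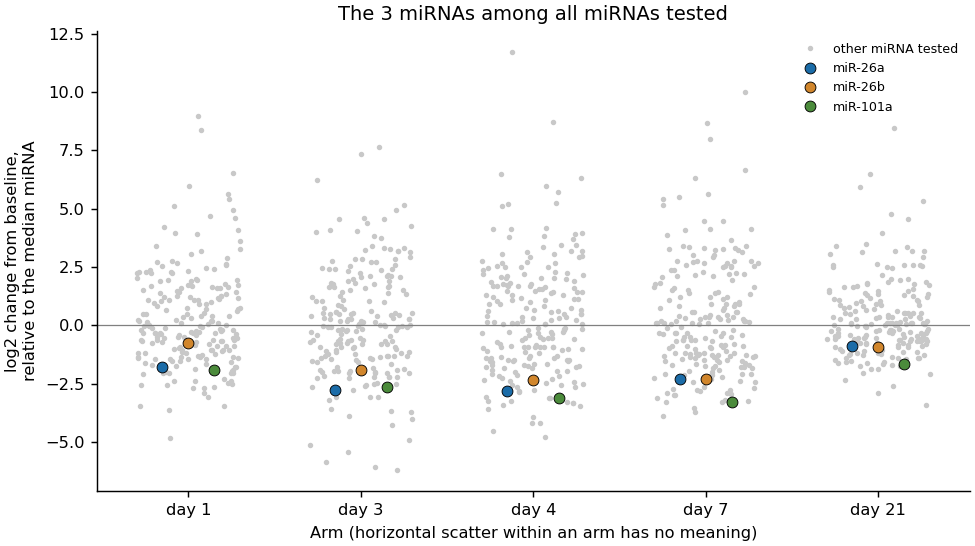
Log2 change from baseline relative to the median miRNA for all miRNAs tested on each day (grey, 211 to 213 per day), with miR-26a, miR-26b and miR-101a in colour. Horizontal scatter has no meaning. The 3 members lie below 0 on each day, and miR-101a is 4th from the bottom on day 7.

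The order of levels over the 6 arms differed between members. For miR-26a relative to the median miRNA it ran from baseline through days 21, 1, 7 and 3 to day 4, and every neighbouring pair passed except days 3 and 4 (difference 0.02, adjusted p = 0.928). For miR-26b it ran from baseline through days 1, 21, 3 and 7 to day 4. Its days 1 and 21 (adjusted p = 0.400), 3 and 7 (0.0588) and 7 and 4 (0.827) did not differ beyond their spread. For miR-101a the order was baseline, days 21, 1, 3, 4 and 7, with days 21 and 1 (adjusted p = 0.194) and days 4 and 7 (0.409) not separated.

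Relative to U6 fewer neighbours were separated. Its order for miR-26a was baseline, then days 21, 7, 4, 1 and 3, and only the step between days 21 and 7 passed (1.38, adjusted p = 0.0306). Gaps of 1.01 between baseline and day 21 and 1.09 between days 7 and 4 did not pass, which does not show that these arms were level. For miR-26b it was baseline, then days 21, 7, 1, 3 and 4, and again only the step between days 21 and 7 passed (1.34, adjusted p = 0.0491), while the gap of 1.06 between baseline and day 21 did not. For miR-101a, baseline and day 21 (0.000609) and days 21 and 7 (0.00329) differed, while days 7, 3, 4 and 1 followed without a passing step.

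Between successive time points, the late increase was the change that passed on both scales. From day 7 to day 21 all 3 members rose, against 19.4% of 216 miRNAs higher and 14.4% lower on both scales. miR-101a was 3.08-fold higher on day 21 than on day 7 (log2 1.62 ± 0.16, and 1.60 ± 0.40 relative to U6). miR-26a was 2.65-fold higher (1.41 ± 0.16, and 1.38 ± 0.49 relative to U6, adjusted p = 0.0306), and miR-26b was 2.58-fold higher (1.37 ± 0.18, and 1.34 ± 0.53 relative to U6, adjusted p = 0.0491). In raw Ct the changes were smaller, at 0.58 for miR-101a (adjusted p = 0.0134), 0.36 for miR-26a (0.0583) and 0.32 for miR-26b (0.134), and only that of miR-101a passed. Relative to U6 the calls of miR-26a and miR-26b each passed in 4 of the 8 fits without a single value, with changes of 1.06 to 1.76 for miR-26a and 0.98 to 1.70 for miR-26b, and that of miR-101a in 8 of 8.

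The steps up to day 7 did not pass on both scales for any member. Of all miRNAs tested, 13.1% were lower and 31% higher on both scales for day 3 against day 1, 1.85% and 21.3% for day 4 against day 3, and 0.922% and 16.1% for day 7 against day 4. From day 1 to day 3, miR-26a changed by -1.01, miR-26b by -1.14 and miR-101a by -0.76 relative to the median miRNA, but by -0.22, -0.35 and 0.02 relative to U6. From day 3 to day 4 the values were -0.02, -0.45 and -0.46 relative to the median miRNA, and 0.43, -0.01 and -0.02 relative to U6. From day 4 to day 7 miR-26a changed by 0.51 (adjusted p = 0.0127) and by 1.09 relative to U6 (adjusted p = 0.113), against 0.05 for miR-26b and -0.17 for miR-101a relative to the median miRNA. Over the longer step from day 3 to day 7 miR-26a alone of the 3 rose on both scales, against 31.9% of 216 miRNAs higher and 3.7% lower (0.49, adjusted p = 0.0113, and 1.52 relative to U6, adjusted p = 0.0107). This step is not between successive time points, and it was not refitted under other settings or without single values.

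The difference between a pair of members is the same on every scale that shifts all miRNAs alike (the median miRNA, a control RNA or raw Ct), and each of the 3 pairs was compared on 5 days. Quantile scaling, which moves miRNAs by unequal amounts, changes these differences, and its values, added after the data were seen, are given for each pair. Of these 15 exact permutation tests (two-sided, 4 values against 4), 10 gave the smallest p that the 70 splits allow, 0.0286, or 0.0429 after adjustment over the 15. Those 10 are the ones in which the time point and baseline did not overlap. The mean difference does not depend on how values are matched between assays, while its spread takes values in the same position as readings of 1 RNA.

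miR-26a was further below its baseline than miR-26b, its seed partner, on days 1, 3 and 4, but with quantile scaling only the day 1 difference kept its direction. With the baseline mean set to 0, miR-26a minus miR-26b was -1.15, -1.34, -0.81 and -0.73 on day 1, against 0.11, 0.03, -0.06 and -0.08 at baseline. By the mean of day 1, miR-26a had fallen 2.00-fold further than miR-26b. The mean difference was -0.88 on day 3 (-0.98, -0.66, -0.98 and -0.90) and -0.44 on day 4 (-0.35, -0.20, -0.76 and -0.48). All 12 values of days 1, 3 and 4 lay under those of baseline (adjusted p = 0.0429 on each day, exact permutation test). With quantile scaling the difference was -0.62 on day 1 (adjusted p = 0.0390), 0.01 on day 3 (0.914) and 0.13 on day 4 (0.582, exact permutation tests).

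On days 7 and 21 the result depended on the scaling. The difference was 0.01 on day 7 (exact p = 0.857), with a 95% interval of -0.31 to 0.34 from a limma fit over all arms. On day 21 it was 0.05 (exact p = 0.857), with an interval of -0.27 to 0.38. With quantile scaling miR-26a lay over miR-26b by 0.96 on day 7 and 0.90 on day 21, with no overlap with baseline (adjusted p = 0.0390 each, exact permutation test), outside both intervals.

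miR-101a differed from miR-26a on days 7 and 21. miR-26a minus miR-101a was 0.13 on day 1 (95% interval -0.26 to 0.52, exact p = 0.600), -0.12 on day 3 (-0.51 to 0.28, p = 0.314) and 0.33 on day 4 (-0.06 to 0.72, p = 0.0571). On day 7 the 4 values were 0.74, 1.24, 1.23 and 0.82, against -0.07 to 0.08 at baseline, with a mean of 1.00. On day 21 they were 1.01, 0.90, 0.59 and 0.66, with a mean of 0.79. On both days no value overlapped baseline, and miR-101a was further below its baseline than miR-26a by 2.00-fold on day 7 and 1.72-fold on day 21 (adjusted p = 0.0429 each). With quantile scaling these differences were 2.29 and 1.74, and those of day 3 (0.62) and day 4 (1.11) passed as well (adjusted p = 0.0390 each, exact permutation test).

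miR-26b was less far below its baseline than miR-101a on all 5 days. The difference between their changes was 1.13 on day 1, 0.76 on day 3, 0.77 on day 4, 0.99 on day 7 and 0.73 on day 21 (adjusted p = 0.0429 on each day, exact permutation test). The day 1 values of 1.72, 1.58, 0.52 and 0.71 were the most spread (SD 0.605, against 0.126 at baseline), and the lowest single value was 0.20 on day 21, against at most 0.13 at baseline. With quantile scaling the differences were 0.61 to 1.33, and that of day 21 (0.84) no longer passed (adjusted p = 0.0714, exact permutation test).

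**Figure D4:**
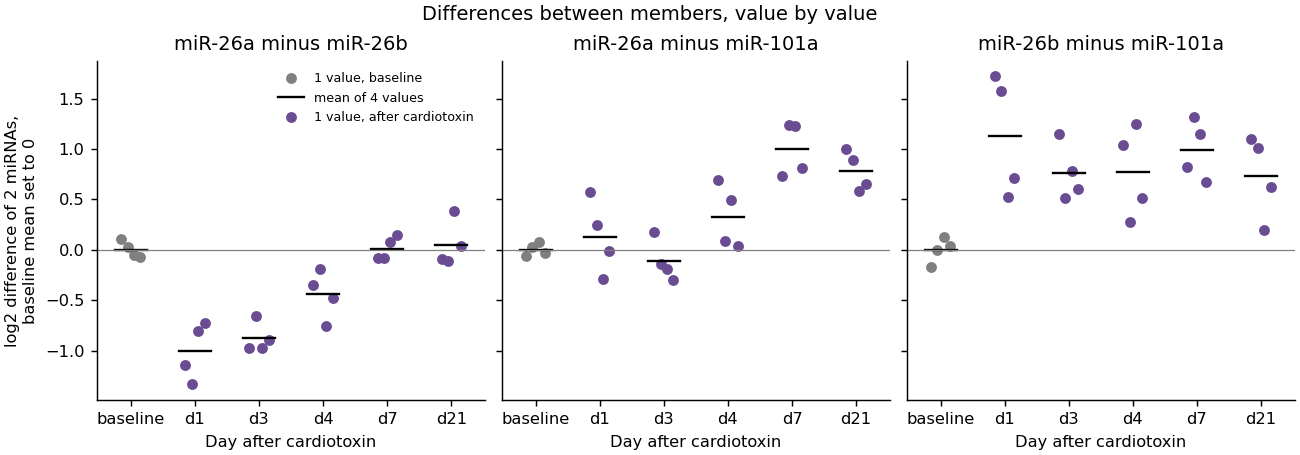
Log2 difference between members within each value, with the baseline mean set to 0, by arm. Grey points are baseline values, purple points are values after cardiotoxin, and bars are means of 4. miR-26a lies under miR-26b on day 1 (-1.34 to -0.73) and on days 3 and 4 (means -0.88 and -0.44) and level with it on days 7 and 21, while it lies over miR-101a on those days (1.00 and 0.79). With quantile scaling, not plotted, the first difference is 0.01, 0.13, 0.96 and 0.90 on days 3, 4, 7 and 21.

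Other miRNAs reported to act on Ezh2 or EZH2 in some cell type did not share one course. Of 19 listed, 13 were measured: miR-214, miR-25, miR-30d, miR-98, miR-138 and 8 let-7 miRNAs. Of all miRNAs tested, 38.9%, 41%, 41.3%, 35.7% and 19.2% fell on days 1, 3, 4, 7 and 21 on both scales. The shares that rose on those days were 9%, 19.3%, 25.4%, 31.5% and 22.1%. Of the 13, 7 fell and 0 rose on day 1, and 6 fell and 0 rose on each of days 3 and 4. On day 7, 5 of the 13 fell and 1 rose, and on day 21, 0 fell and 1 rose. Their median change relative to the median miRNA was -0.64, -0.16, -0.30, -0.37 and -0.27 on days 1, 3, 4, 7 and 21, against -0.04, -0.05, 0.06, 0.07 and 0.00 over all miRNAs tested.

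miR-30d, which acts on EZH2 in human thyroid cancer cells, stood at -1.08 ± 0.14 on day 1, -1.95 on day 3, -2.55 on day 4 and -2.43 on day 7. It stood at -0.69 on day 21, where it did not pass relative to U6 (adjusted p = 0.108). miR-214, which acts on Ezh2 in mouse muscle cells and is abundant in fibroblasts, had a different course. It fell on day 1 (-0.64 ± 0.16) and rose on day 7 (1.23 ± 0.16, and 1.13 relative to U6).

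let-7c, of a family that acts on EZH2 in human prostate cancer cells, was the member of the list that rose on day 21 (1.35 ± 0.14, and 1.23 ± 0.42 relative to U6). Earlier it stood at 0.29 on day 3 and 0.58 on day 7 without passing on both scales. miR-25 passed on both scales on no day, with 1.16 on the main scale and -0.75 on the U6 scale on day 1.

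The patterns nearest to each member were found by the root mean square (RMS) difference of the 5 changes from baseline on the log2 scale, over arm means of the 205 miRNAs. It is the same on scales that shift all miRNAs alike, but with quantile scaling only 1, 2 and 2 of the 5 nearest to miR-26a, miR-26b and miR-101a were shared. The median RMS difference from the other 204 was 2.47 for miR-26a, 2.07 for miR-26b and 2.84 for miR-101a. Nearest to miR-26a were miR-328 (0.333), miR-30b (0.467), miR-30a (0.476), miR-151-3p (0.492) and miR-30d (0.509). Nearest to miR-26b were miR-30d (0.205), miR-143 (0.250), miR-671-3p (0.349), miR-126-5p (0.414) and miR-194 (0.439). Nearest to miR-101a were miR-29c (0.214), miR-145 (0.346), miR-30b (0.402), miR-30e (0.425) and miR-345-5p (0.524).

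The members were not each other's nearest patterns. miR-26b was number 13 from miR-26a (RMS 0.628), miR-101a was number 10 from miR-26a (0.593), and miR-101a was number 34 from miR-26b (0.891). miR-29c, the nearest to miR-101a, had changes of -1.96, -2.52, -3.24, -3.72 and -1.76 on days 1, 3, 4, 7 and 21. miR-30d, the nearest to miR-26b, fell on days 1, 3, 4 and 7, as miR-26b did.

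**Figure D5:**
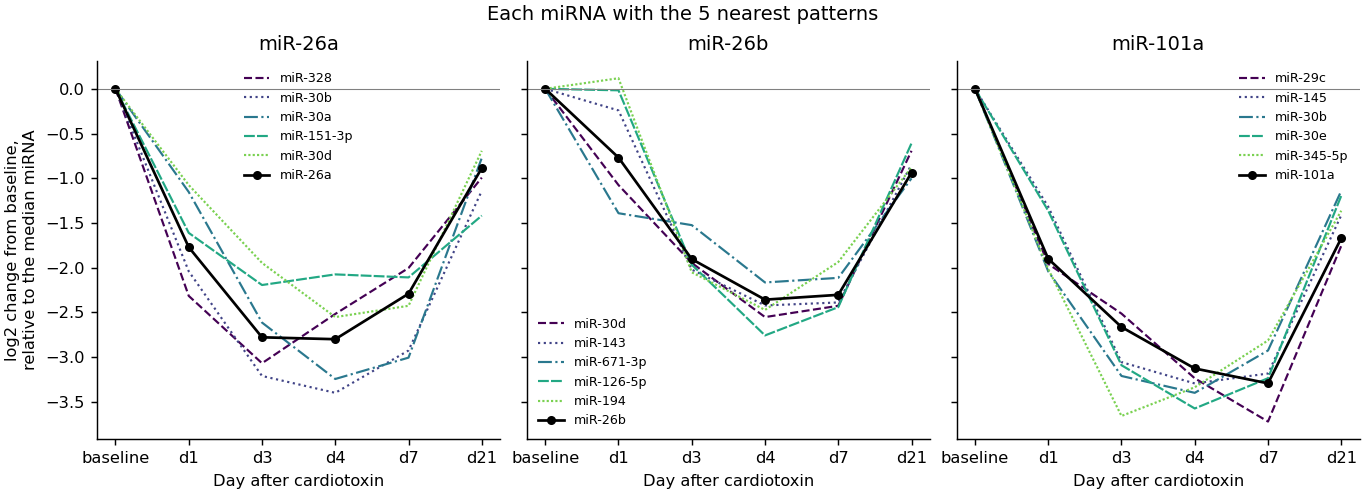
Log2 change from baseline relative to the median miRNA, arm means, for each member (black) and the 5 miRNAs with the smallest RMS difference from it (coloured lines). Near miR-26b, day 1 changes range widely, with miR-194 at 0.12 and miR-671-3p at -1.39, and near miR-101a the course of miR-29c lies closest.

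Markers of the cells in the muscle moved over the same days. Beside their counts, 38.9%, 41%, 41.3%, 35.7% and 19.2% of all miRNAs tested fell on days 1, 3, 4, 7 and 21. Of the myofibre miRNAs 5 of 5 fell on day 1, 4 of 4 tested on day 3, 5 of 5 on day 4, and 4 of 5 on days 7 and 21, and miR-1 stood at -4.85, -6.20, -4.77, -3.29 and -1.44. Summed levels, here and for the markers below, are relative to the median miRNA only and were not computed relative to U6. The summed level of the 5, with baseline as 1, was 0.0547 to 0.202 on day 1, 0.0103 to 0.0521 on day 3, 0.0852 to 0.133 on day 7 and 0.350 to 0.463 on day 21, against 0.880 to 1.16 at baseline. Both endothelial miRNAs fell on days 3, 4 and 7, with miR-126-3p at -2.05, -2.65 and -2.24. On day 1 the scales disagreed. miR-126-3p stood at 0.16 and miR-126-5p at -0.02 relative to the median miRNA, and neither passed. Relative to U6 both were lower by limma (-1.75, adjusted p = 0.000355, and -1.925, adjusted p = 6.39e-05). Their summed level was 1.03 to 1.26 on day 1 and 0.140 to 0.190 on day 4, against 0.882 to 1.13 at baseline.

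Among blood cell markers, 3 of 7 myeloid and lymphoid miRNAs rose on day 1 and 0 fell, against 9% and 38.9% of all miRNAs tested. miR-223 stood at 6.53, 3.74, 2.15, 0.75 and 0.00 on the 5 days. On days 3 and 4, 3 of the 7 rose, against 19.3% and 25.4% of all, and 2 fell, against 41% and 41.3%. On day 7, 2 rose and 2 fell, near the 31.5% and 35.7% of all miRNAs. On day 21, 0 passed on both scales, although 3 were higher and 2 lower by limma relative to the median miRNA alone. The members that fell on days 3, 4 and 7 were the lymphocyte miR-150 (-1.32, -1.84 and -2.10) and miR-155 (-1.37, -1.41 and -1.21), named after their values were seen. The summed level of the 7 was 12.4 to 14.5 on day 1 and 0.740 to 0.975 on day 7, against 0.796 to 1.22 at baseline. The fibroblast and smooth muscle list was mixed. On day 1, 3 of its 6 were lower and 0 higher, against 38.9% and 9% of all miRNAs tested. On day 7, 2 were lower and 3 higher, against 35.7% and 31.5%. miR-199a-3p stood at -1.08 and 0.57 on those days. The erythroid miR-451 stood at 1.58 on day 1, but at -0.33 relative to U6. It fell on day 7 (-2.09, and -2.185 relative to U6). The quiescent satellite cell marker miR-489 stood at -5.42 on day 3 and 0.02 on day 21. The other marker of that list, miR-31, went the opposite way and rose on both days (6.23 and 6.50). The epithelial miR-200a stood at 8.38 on day 1. On that day 4 of 5 epithelial miRNAs tested rose and 1 fell, against 9% and 38.9% of all. The summed epithelial level was 1.38 to 1.70 on day 1 and 0.519 to 0.626 on day 7, against 0.883 to 1.25 at baseline. This sum is linear, so the most abundant miRNAs weigh most. Like the other sums it holds for the main scale only. Day 1 changes relative to U6 were lower by 1.91 (log2), so the size and direction of a day 1 sum depend on the scale. On day 7, 3 of the 5 epithelial miRNAs tested were still higher on both scales, and 1, miR-203, was lower (-0.91). The part of any of these cells in the changes of miR-26a, miR-26b and miR-101a was not tested.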

How the data were processed

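The authors deposited raw Ct values, with no normalization per the file headers, from TaqMan PCR of 40 cycles, per the labels' protocols. RNA was isolated with a miRNeasy kit and had an integrity number above 9. The baseline values were the same in all 5 files and were used once. Arrays of wells have no depth, and 4 values per arm limit the precision.

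Members and lists were chosen with earlier results of these data known. miRNAs with Ct under 35 in at least 3 of 4 wells of both arms were tested, and wells at 40 were left out. Minus Ct was scaled to the median miRNA or to U6, and all 6 arms entered 1 limma 3.58.1 fit (R 4.3.3), two-sided, with Benjamini-Hochberg adjustment. Member differences used exact permutation tests (scipy 1.17.1). The fit was tested on data simulated for day 3 against baseline. True log2 changes of 1 were called in 85.6% of cases on the main scale, but in 18% relative to U6. For changes of 2 these shares were 97.2% and 82.4%, and for no change 1.01% and 2.87%. The simulation changed a minority of the miRNAs, as many up as down, with independent noise in each well, so the median miRNA stayed level by design. In the data far more were called on day 3 on the main scale, 87 lower and 82 higher. These shares therefore need not hold for the data. Alternatives were other scalings, Ct limits, the arms fitted, limma-trend and leaving out each value. Quantile scaling of the member differences and nearest patterns was added after seeing the data. Planned for naming were the members, the 5 nearest patterns of each, 5 of the Ezh2 list, the first measured marker of each cell type and the control RNAs. Of the 5, miR-101b was not measured. The markers miR-31, miR-203, miR-150 and miR-155 were named outside this plan. miR-29c's course was singled out after its values were seen.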

Additional observations from a re-analysis of the deposited data

How the results depend on the processing

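No paired analysis was possible because the labels give no replicate numbers that the arms share. Against baseline, 155 of 165 member values under other settings kept their direction and side of the threshold, as did all 120 that left out a value. The Ct limits, the arms fitted and limma-trend left the member changes themselves the same, so these settings could alter only the call. Relative to Y1, day 1 gave 0.96, 1.97 and 0.83 for miR-26a, miR-26b and miR-101a, day 3 gave -0.59 for miR-26b, and day 21 gave 0.19 for miR-26a and 0.13 for miR-26b. U6 gave -1.01 and -1.06 for miR-26a and miR-26b on day 21, quantile scaling 0.052 for miR-26a on day 21, and raw Ct -0.39 for miR-26b on day 1. The causes were not tested.

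Between successive days, 108 of 132 values under other settings kept both. For day 3 against day 1, U6 gave -0.22, -0.35 and 0.023 for miR-26a, miR-26b and miR-101a, quantile scaling 0.11 for miR-26a and -0.36 for miR-101a, and raw Ct -0.44 for miR-101a. For day 4 against day 3, miR-26b gave -0.005 with U6, -0.21 with snoRNA135, -0.11 with U87, -0.22 with raw Ct and -0.25 with quantile scaling. There miR-101a gave -0.015 with U6, -0.22 with snoRNA135, -0.42 with snoRNA202, -0.12 with U87, -0.23 with raw Ct and -0.46 with only both arms fitted, and miR-26a -1.05 with Y1. For day 7 against day 4, miR-26a gave 1.09 with U6 and 0.65 with U87, and Y1 gave 0.86 for miR-26b and 0.64 for miR-101a. For day 21 against day 7, raw Ct gave 0.36 for miR-26a and 0.32 for miR-26b. Leaving out a value gave -0.52 to -0.39 for miR-26b and -0.61 to -0.36 for miR-101a (day 4 against day 3), and 0.39 to 0.62 for miR-26a (day 7 against day 4), each losing the call in some runs.

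All 15 member differences kept their call with limma, whose estimate is the same difference of means, so their direction could not change. Quantile scaling, added after seeing the data, kept 8 of 15: miR-26a minus miR-26b became 0.014, 0.13, 0.96 and 0.90 on days 3, 4, 7 and 21, miR-26a minus miR-101a 0.62 and 1.11 on days 3 and 4, and miR-26b minus miR-101a 0.84 on day 21. Leaving out a value moved none by 1 SD, but 3 values against 4 cannot reach the threshold. Calls with U6 numbered 88 against 156 on day 21, 98 against 170 (day 3 against day 1), 50 against 117 (day 4 against day 3), 40 against 108 (day 7 against day 4) and 74 against 153 (day 21 against day 7). With U87 they were 65 (day 4 against day 3) and 55 (day 7 against day 4). The share of calls that were lower was 48.5%, 51.5%, 48.9%, 51.1% and 51.3% on days 1, 3, 4, 7 and 21, and 88%, 73.2%, 63%, 53.5% and 46.6% with U6. Across settings it ran from 1.05% to 88% on day 1, 22% to 81.1% on day 3, 33.7% to 75.6% on day 4, 24.7% to 71.7% on day 7 and 5.3% to 79.8% on day 21. Of the other Ezh2-acting miRNAs, 7 were called on day 21, but with U6 only 1. With Pearson correlation, 1, 2 and 2 of the 5 nearest patterns of miR-26a, miR-26b and miR-101a were shared, and as many with quantile scaling.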
